A study of Mus musculus with 12 samples.

Results

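The 10 genes Gata1, Gata2, Klf1, Nfe2, Zfpm1, Gfi1b, Tal1, Lyl1, Lmo2 and Fli1 encode transcription factors and cofactors of the megakaryocyte and erythroid lineages. They were taken by name from a table of 23472 genes, and all 10 were among the 13184 that passed the filter on low counts. Poly-A RNA had been sequenced from bone marrow LT-HSCs (long-term haematopoietic stem cells), the cells that sustain blood formation over a lifetime, of C57BL/6 mice. The 6 libraries labelled Jak1 KO came from cre-positive mice and the 6 wt libraries from cre-negative mice. Both groups had been injected with poly(I:C), a double-stranded RNA used to induce the deletion, in 4 doses given 4 to 6 weeks before the marrow was taken, so the wt animals had this treatment as well. The sources used here give neither the promoter of the cre nor the deleted exons. Since all and only the mice labelled Jak1 KO carried cre, its own effects and those of losing Jak1 cannot be told apart. In each genotype replicates 1 to 3 carry names of a VD series and replicates 4 to 6 names of a ZL series, which are called name sets here. The labels do not state that each library came from its own animal, so p-values measure only the spread among these samples, part of which may be technical.

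Gata1 and Gata2 bind GATA motifs in DNA. Gata2 is expressed in stem and progenitor cells and is replaced by Gata1 as cells mature along the erythroid lineage. Zfpm1 (FOG1) is the zinc finger cofactor that Gata1 needs in red cell and platelet precursors, Klf1 drives the globin and red cell programme, and Gfi1b is a repressor required for both lineages. Tal1 and the related Lyl1 are basic helix-loop-helix factors that join Lmo2, a bridging protein, in complexes with GATA factors. Fli1 is an ETS factor and Nfe2 a bZIP factor of platelet formation.

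Total counts ranged from 8989965 to 28701855 per library. Jak1 itself lay between 246 and 727 normalised CPM (reads of a gene relative to the library's scaled total) in the libraries labelled Jak1 KO, against 321 to 435 in wt, which does not check the labels, because reads of undeleted exons enter the count of the whole gene. All 12 LT-HSC markers were detected, among them Hlf at 203 to 650 CPM in the libraries labelled Jak1 KO and 181 to 500 in wt. Cd48, which LT-HSCs lack on their surface, lay between 3.12 and 11.2 CPM in the libraries labelled Jak1 KO and between 3.59 and 7.82 in wt. Other progenitor markers were higher. Cd34 lay at 273 to 389 CPM in the libraries labelled Jak1 KO and 238 to 400 in wt. Flt3 lay at 35.6 to 52.1 CPM in the libraries labelled Jak1 KO and 25.2 to 33.5 in wt, without overlap. The part of progenitor content in the results below was not tested. The library labelled Jak1 KO 4 stood apart, with the lowest limma-voom quality weight (0.165) and log2 CPM values that fell with exon length relative to its name set (Spearman -0.52 across genes). In Jak1 KO 6 and wt 6 they rose with exon length (0.45 and 0.38). Jak1 KO 6 and wt 6 also had low quality weights (0.359 and 0.215). The part of these traits in the results below was examined only by fits without those libraries, with quality weights and with an offset for exon length.

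Promoters of RefSeq (GRCm38.p6) were found for 7 of the 10 genes and not for Nfe2, Lmo2 and Fli1. Those of Gata1, Klf1, Gfi1b and Zfpm1 are shown because these 4 genes lay lower in every VD library labelled Jak1 KO than in every VD wt library with scaled and with plain CPM. Each run holds 190 bases, from 250 to 61 bases before the annotated start, 5′ to 3′ on the gene's strand. Capitals mark GATA motifs, which are AGATAA with either A or T as its first base and either A or G as its last, and the KLF-type motif CACCC, on either strand, and no 2 marked motifs overlap.
Gata1, minus strand, chrX:7967971-7968160: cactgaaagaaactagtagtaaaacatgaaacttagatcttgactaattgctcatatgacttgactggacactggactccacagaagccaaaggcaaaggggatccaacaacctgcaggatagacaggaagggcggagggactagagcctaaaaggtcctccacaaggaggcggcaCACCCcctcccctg
Klf1, plus strand, chr8:84901732-84901921: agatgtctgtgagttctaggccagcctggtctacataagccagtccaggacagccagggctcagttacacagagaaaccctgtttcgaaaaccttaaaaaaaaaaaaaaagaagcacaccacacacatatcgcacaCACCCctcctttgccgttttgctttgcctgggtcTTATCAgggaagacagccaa
Gfi1b, minus strand, chr2:28622043-28622232: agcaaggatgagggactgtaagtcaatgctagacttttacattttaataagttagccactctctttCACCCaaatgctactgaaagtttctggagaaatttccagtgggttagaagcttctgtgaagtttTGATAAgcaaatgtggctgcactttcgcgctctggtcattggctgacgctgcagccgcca
Zfpm1, plus strand, chr8:122281891-122282080: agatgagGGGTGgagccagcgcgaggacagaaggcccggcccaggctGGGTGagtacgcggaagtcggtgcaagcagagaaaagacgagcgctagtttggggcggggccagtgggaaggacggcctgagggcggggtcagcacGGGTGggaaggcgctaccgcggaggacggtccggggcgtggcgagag
Klf1 and Gfi1b each hold 1 GATA motif in this window, and 22.4% of the 32851 promoters in the RefSeq table hold at least 1. The CACCC motif occurs in all 4 windows, in Zfpm1 3 times, and in 42.6% of all promoters. It is not particular to the genes shown, since Gata2, Tal1 and Lyl1 hold it too. For Gata2 and Tal1 this is so at 1 of 2 annotated starts, and that window of Tal1 also holds 1 GATA motif. A match describes the letters of the window and not a bound site.

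The first question was whether these 10 genes are expressed differently in Jak1 KO than in wt LT-HSCs. Gata1 was the member with the clearest difference. It lay at 32.5, 40.5 and 23.4 CPM in the VD libraries labelled Jak1 KO, against 69.6, 62.4 and 53.8 in the VD wt libraries. In ZL it lay at 72.9, 47.8 and 44.5 CPM in the libraries labelled Jak1 KO, against 84.5, 101.8 and 94.4 in wt. The groups did not overlap in either name set, and Jak1 KO 4 came closest to wt. Over all 12 libraries Gata1 averaged 43.6 ± 16.8 CPM in the libraries labelled Jak1 KO and 77.7 ± 18.9 in wt (SD, n = 6 each), a log2 fold change of -0.86 (SE 0.18, 95% interval -1.23 to -0.48). Its edgeR adjusted p of 0.0539 lay just outside the threshold of 0.05. The gene lies on the X chromosome (7959260 to 7978071, GRCm38, minus strand), and each genotype in each name set held libraries of both sexes by Xist and Y-linked transcripts. With a term for sex the log2 fold change was -0.86 (adjusted p = 0.0716).

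With edgeR 0 of the 10 genes passed the threshold, at a background of 0.440% of all genes tested. At an unadjusted p under 0.05 there were 2, Gata1 and Fli1, among 667 of the 13184 genes. DESeq2 called 1 of the 10, Gata1 (adjusted p = 0.0127), at a background of 0.956% of all genes. It gave no adjusted p for Zfpm1. limma-voom with sample quality weights called 3, Gata1 (adjusted p = 9.37e-05), Gfi1b (0.0197) and Fli1 (0.0294), at a background of 1.67%. The call of Gata1 turned on single libraries: without Jak1 KO 4 edgeR's adjusted p was 0.00819, and over the other 11 fits that left out 1 library it stayed above 0.05 and reached 0.193.

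**Figure D1:**
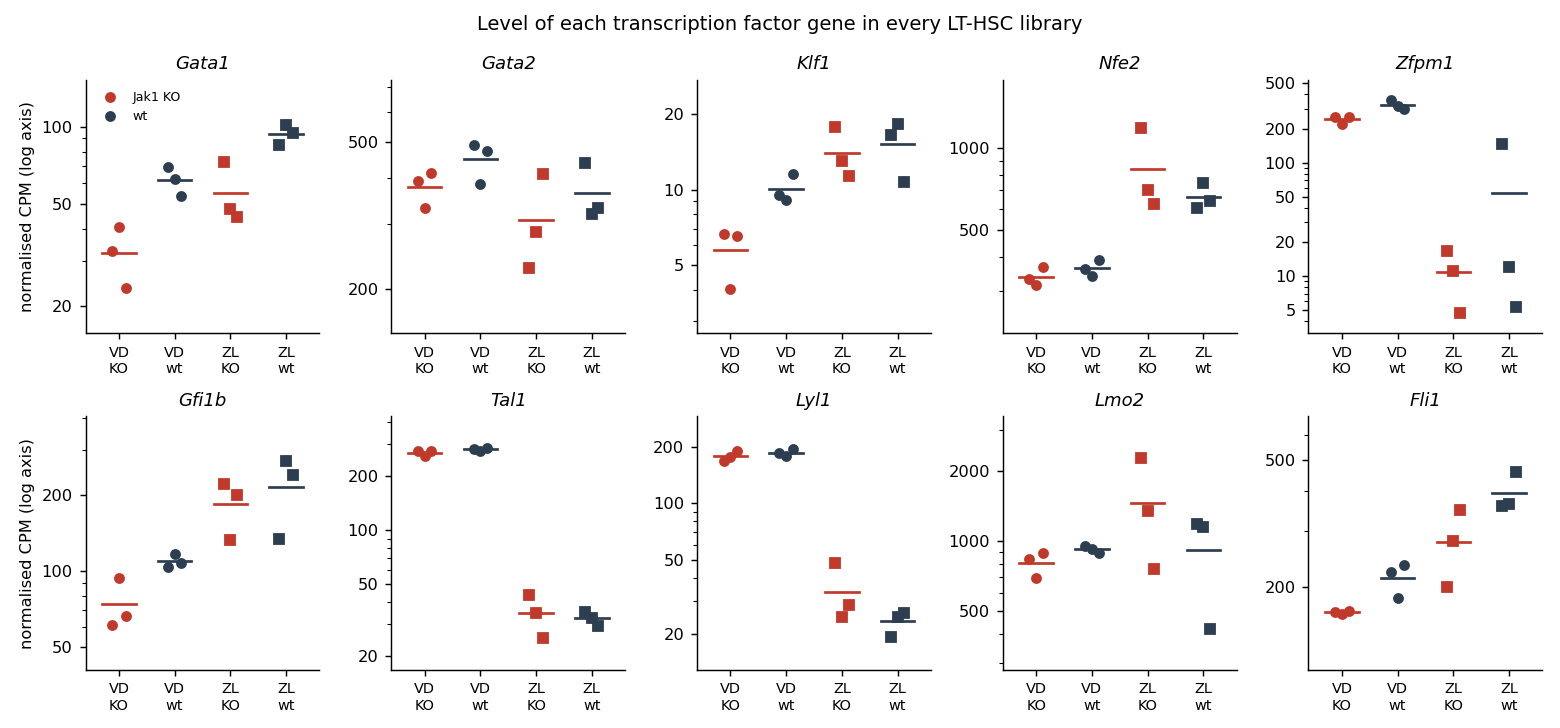
Normalised CPM on a log axis for each of the 10 genes, by name set and genotype (circles VD, squares ZL, red labelled Jak1 KO, dark wt, n = 3 per column, lines are means). Gata1 and Fli1 separate the genotypes in both name sets, Tal1, Lyl1 and Zfpm1 are lower in ZL than in VD in both genotypes, and wt 4 is the single high ZL library for Zfpm1.

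Fli1, which activates platelet genes together with Gata1 and Zfpm1, was the other gene whose genotypes did not overlap in either name set. It lay at 167.1, 164.6 and 167.9 CPM in the VD libraries labelled Jak1 KO and at 223, 184 and 234 in VD wt. In ZL the values were 199.9, 279 and 349 CPM in the libraries labelled Jak1 KO and 359, 363 and 458 in wt. In ZL the gap between the highest library labelled Jak1 KO and the lowest wt library was small beside the spread within the groups. On the log2 scale the difference was -0.44 (SE 0.15, 95% interval -0.76 to -0.12), with an edgeR adjusted p of 0.656. With plain CPM on total counts the VD groups of Fli1 overlapped. Complete separation of the genotypes within VD and within ZL, with Jak1 KO lower, was thus seen for 2 of the 10 genes, and for 0.963% of all genes tested.

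Klf1, the red cell factor, had the lowest CPM of the 10 genes in VD. It lay at 6.64, 4.03 and 6.56 CPM in the VD libraries labelled Jak1 KO, from 83, 33 and 70 reads, against 9.499, 9.09 and 11.5 CPM in VD wt, from 140, 81 and 132 reads. In ZL it lay at 17.8, 12.98 and 11.3 CPM in the libraries labelled Jak1 KO and at 16.5, 18.3 and 10.7 in wt. The VD groups were apart and the ZL groups overlapped. On the log2 scale Klf1 differed by -0.76 in VD alone (SE 0.32, edgeR adjusted p = 0.309) and -0.13 in ZL alone (SE 0.35, adjusted p = 0.959).

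Gfi1b showed the same arrangement. In VD it lay at 61.2, 94.1 and 66.5 CPM in the libraries labelled Jak1 KO and at 103, 117 and 107 in wt. In ZL it lay at 220.2, 133.0 and 199.4 CPM in the libraries labelled Jak1 KO and at 133.3, 271 and 238 in wt, so that the ZL groups overlapped over most of their range. On the log2 scale Gfi1b differed by -0.53 in VD alone (SE 0.14, edgeR adjusted p = 0.106) and -0.22 in ZL alone (SE 0.33, adjusted p = 0.946).

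Zfpm1 had the largest fold change of the 10 and the widest interval. In VD it lay at 253, 220.1 and 255 CPM in the libraries labelled Jak1 KO and at 359, 317 and 296 in wt, groups that did not overlap (log2 fold change in VD alone -0.38, SE 0.09, edgeR adjusted p = 0.0672). In ZL it lay at 16.8, 11.2 and 4.74 CPM in the libraries labelled Jak1 KO, against 145.6, 12.1 and 5.41 in wt. Here wt 4 alone was high, 12.1 times the next wt library of ZL. Over all 12 libraries it differed by -1.36 on the log2 scale (SE 0.67, edgeR adjusted p = 0.945), and without wt 4 it was -0.11.

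Gata2, the stem cell GATA factor, ranged from 229 to 410.2 CPM in the libraries labelled Jak1 KO and from 318 to 489 in wt. Its groups overlapped in both name sets, and the 95% interval of its log2 fold change ran from -0.58 to 0.10. Annotated exons span 2438 bases for Gata1 and 5398 for Gata2. The ratio of Gata1 to Gata2 reads was chosen after the values were seen. It does not depend on library scaling but can shift with a library's trend on exon length, which was not tested for the ratio. In VD it averaged 0.0874 ± 0.0328 in the libraries labelled Jak1 KO and 0.140 ± 0.0242 in wt, and in ZL 0.198 ± 0.109 in those labelled Jak1 KO against 0.266 ± 0.0655 in wt (SD, n = 3 each). The ratio was 1.55-fold lower in the libraries labelled Jak1 KO (log2 difference -0.63), with p = 0.06 by exact permutation within name sets (two-sided, 400 relabelings, smallest possible 0.005). Jak1 KO 4, with a ratio of 0.319, lay beside the highest wt library, wt 5 at 0.3196, and without it the log2 difference was -0.84.

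Tal1 and Lyl1 showed the smallest differences within VD. Tal1 lay between 260.4 and 275 CPM in the VD libraries labelled Jak1 KO and between 276 and 286 in VD wt, and in ZL between 25.2 and 43.8 in those labelled Jak1 KO against between 29.6 and 35.1 in wt. The 95% interval of its log2 fold change over all 12 libraries was -0.29 to 0.32. Lyl1 lay between 169 and 190 CPM in the VD libraries labelled Jak1 KO and between 178 and 194 in VD wt, with an interval of -0.16 to 0.62. In ZL its values were 47.9, 24.5 and 28.7 CPM in the libraries labelled Jak1 KO and 19.3, 24.7 and 26.0 in wt, with Jak1 KO 4 the highest. Annotated exons of Lyl1 overlap those of Nfix, and since a strand setting is not given in the sources used here, reads of the shared bases cannot be told apart.

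Nfe2 and Lmo2 did not pass either. Nfe2 ranged from 315 to 366 CPM in the VD libraries labelled Jak1 KO and from 339 to 388 in VD wt. In ZL it lay at 1190.0, 702 and 624 CPM in the libraries labelled Jak1 KO and at 601, 743 and 638 in wt, so that Jak1 KO 4 stood above all others. Lmo2 lay at 2276, 1341 and 755 CPM in the ZL libraries labelled Jak1 KO and at 1185, 1142 and 421 in ZL wt, a 2.81-fold range within wt alone. Its VD values were tighter, 693 to 889 CPM in the libraries labelled Jak1 KO and 890 to 955 in wt. The log2 fold changes over all 12 libraries were 0.12 for Nfe2 (SE 0.17) and 0.24 for Lmo2 (SE 0.29), and without Jak1 KO 4 they were -0.018 and 0.016.

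**Figure D2:**
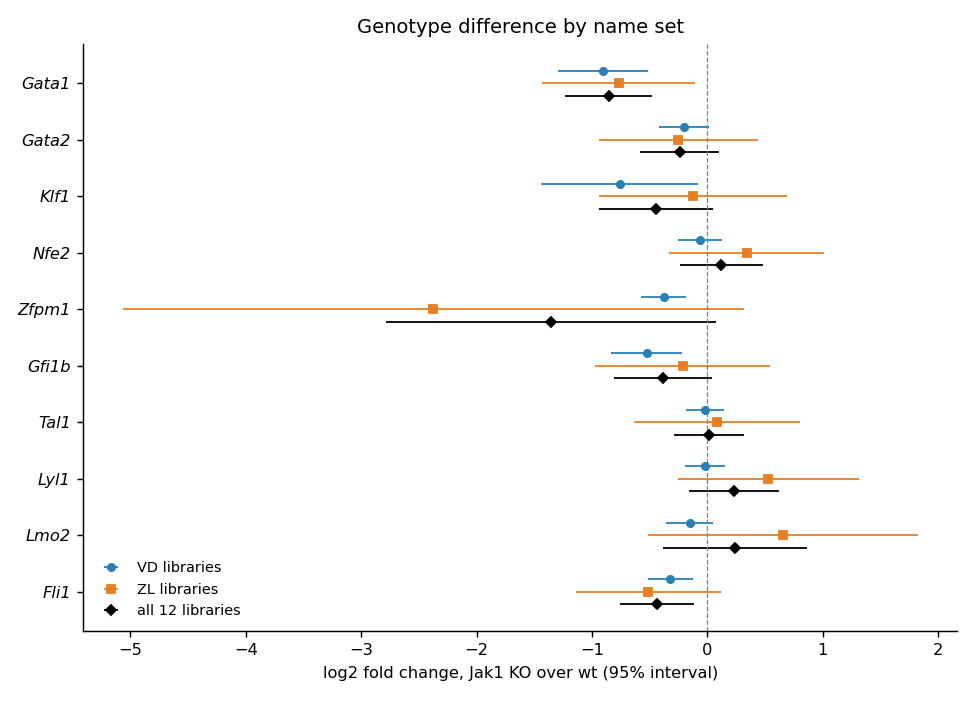
Log2 fold change (labelled Jak1 KO over wt) with its 95% interval for each gene, in the VD libraries, the ZL libraries and all 12. All 10 VD estimates lie below 0, the interval of Gata1 excludes 0 in each fit, and the ZL interval of Zfpm1 spans -5.06 to 0.31.

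Within VD all 10 fold changes were below 0, with a median of -0.26 on the log2 scale, while over all genes of that fit 49.2% were below 0 and the median over its 12903 genes was 0.0048. Gata1 was the 1 gene past edgeR's threshold there (log2 fold change -0.91, SE 0.18, adjusted p = 0.0230), at a background of 1.15%. Every VD library labelled Jak1 KO lay below every VD wt library for 7 of the 10 genes, Gata1, Klf1, Zfpm1, Gfi1b, Tal1, Lmo2 and Fli1, and for 13.2% of all genes. With plain CPM on total counts this held for 4 of the 10 and for 8.96% of all genes, and it was lost for Tal1, Lmo2 and Fli1. With scaled CPM the gap was narrow for Tal1 (275.1 below 275.9) and for Lmo2 (888.9 below 889.9).

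In ZL 6 of the 10 fold changes were below 0, against 50.3% of all genes of that fit. Separation in ZL with Jak1 KO lower was seen for 2 genes, Gata1 and Fli1, at a background of 2.34%. edgeR called 0 of the 10 in ZL alone, where it called 0 of all genes and 226 had an unadjusted p under 0.05, among them Gata1 (log2 fold change -0.77, SE 0.29, adjusted p = 0.946). The difference of the genotype effect between the name sets was tested as an interaction and passed for 0 of the 10 genes with edgeR, DESeq2 and limma-voom. Over all genes DESeq2 called 1 and limma-voom 0, so the absence of calls among the 10 does not show equal effects. None of the 10 had an unadjusted p under 0.05 with edgeR, against 182 of all genes. For Gata1 the interaction was 0.18 on the log2 scale (SE 0.36, ZL minus VD), with a 95% interval of -0.60 to 0.96.

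For several of the 10 genes the name sets differed by more than the genotypes did. Among wt libraries, tested within 1 edgeR fit, Tal1 was 8.69-fold lower in ZL than in VD (log2 fold change -3.12, SE 0.22, adjusted p = 1.43e-06) and Lyl1 7.97-fold lower (-2.99, SE 0.26, adjusted p = 4.34e-06). Zfpm1 was also lower in ZL (-2.58, SE 0.88, adjusted p = 0.0376). In wt 4 it lay at 145.6 CPM and in wt 5 and wt 6 at 12.1 and 5.41, against 296 to 359 in VD wt. Tal1, Lyl1 and Zfpm1 are 3 of the 10 genes, at a background of 15.2% lower in ZL. Nfe2, Gfi1b and Fli1 were higher in ZL, by 0.87, 0.97 and 0.88 on the log2 scale (adjusted p = 0.0122, 0.0185 and 0.00806), which is 3 of the 10 at a background of 19.9%. Gata1 (0.60, adjusted p = 0.0852), Klf1 (0.60), Gata2 (-0.30) and Lmo2 (-0.01) did not pass.

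GC content of the longest transcript was highest for Zfpm1 (66.8%) and Lyl1 (62.6%) among the 10 genes, and 52.8% for Tal1, while Klf1 with 61.0% was not lower in ZL. Across 13071 genes the ZL to VD fold change in wt had a Spearman correlation of -0.27 with GC content. Reads of Rn45s, a ribosomal RNA precursor, made up 0.511% to 0.950% of the reads of each ZL library and 14.8% to 22.6% of those of each VD library. Whether the name sets were separate collections or preparations is not stated, and the part of these traits in the differences was not tested.

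Per kb of exon, Lmo2 had the highest level in wt, at 426 ± 15.0 CPM per kb in VD and 423 ± 198 in ZL (SD, n = 3 each). Nfe2 followed at 121 ± 8.20 in VD and 221 ± 24.7 in ZL, and its range did not overlap that of Lmo2 in VD but did in ZL. In VD Lyl1 (103 CPM per kb), Zfpm1 (92.5) and Gata2 (83.0) came next, each overlapping its neighbour, then Tal1 (64.3), Fli1 (61.3) and Gfi1b (59.6), which also overlapped. Gata1 (25.4) and Klf1 (6.56) stood below them without overlap. In ZL the order was Gfi1b (117), Fli1 (113), Gata2 (67.2) and Gata1 (38.4), with Zfpm1 (15.5), Lyl1 (12.97), Klf1 (9.93) and Tal1 (7.40) at the bottom, and ranges overlapped between Gfi1b and Fli1 and along the run from Gata1 to Tal1. The place of Zfpm1 and its overlap with Gata1 rest on wt 4, at 41.6 CPM per kb, against 3.45 in wt 5 and 1.54 in wt 6.

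**Figure D3:**
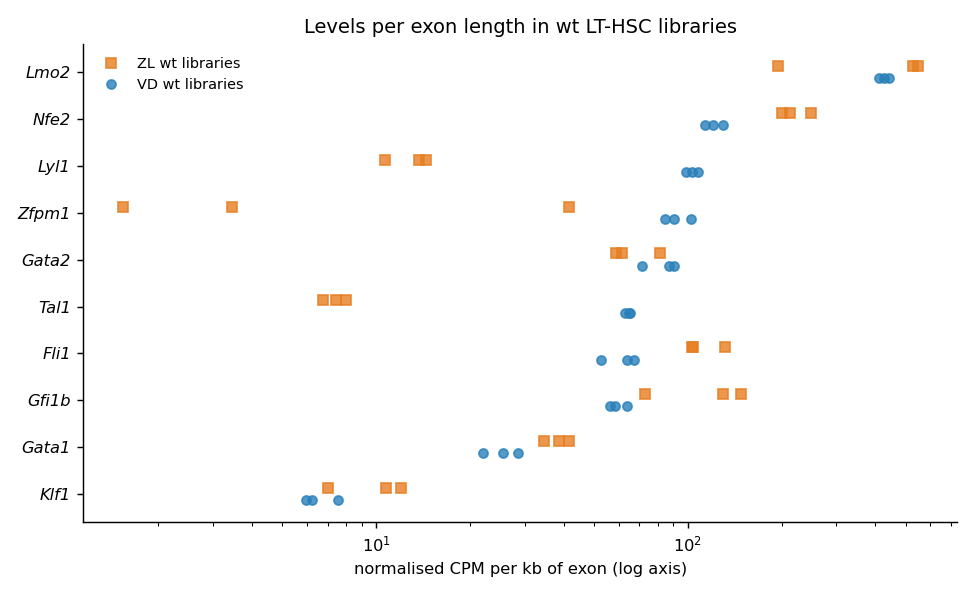
Normalised CPM per kb of exon on a log axis in the 3 wt libraries of each name set, genes ordered by their VD mean. Lmo2 is highest and Klf1 lowest in VD, and Tal1, Lyl1 and Zfpm1 shift left in ZL.

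Genes of the lineages that these factors direct were taken from lists. Of 28 tested megakaryocyte genes 3 were lower and 0 higher with edgeR, beside 57 lower and 1 higher of all 13184 genes. The median log2 fold change was -0.33 against -0.0060 over all genes, and 22 of the 28 were below 0, against 50.96% of all genes. Itga2b, the integrin subunit CD41 and a target of Gata1 and Fli1, lay at 338, 325 and 376 CPM in the VD libraries labelled Jak1 KO and at 731, 531 and 589 in VD wt, and at 130.2, 164 and 274 in the ZL libraries labelled Jak1 KO against 449, 383 and 603 in ZL wt. Its groups were apart in both name sets, and it fell by 1.08 on the log2 scale (SE 0.20, edgeR adjusted p = 0.0247). The thrombin receptor genes F2rl2 (-1.19, SE 0.22, adjusted p = 0.0264) and F2r (-0.98, SE 0.20, adjusted p = 0.0473) were the others. Rab27b, which serves platelet granules, did not pass (-0.72, adjusted p = 0.0602). Without Jak1 KO 4 the count was 6, with Rab27b, Plek and Pf4 added, beside 77 of all genes. Pf4, a platelet chemokine named after its values were seen, lay at 419 CPM in Jak1 KO 4 and at 47.4 to 129.7 in the other 5 libraries labelled Jak1 KO, against 144 to 493 in wt. Its log2 fold change was -1.24 (edgeR adjusted p = 0.422), and without Jak1 KO 4 it was -1.72 (adjusted p = 0.00270). That fit leaves out the library labelled Jak1 KO that lay within the wt range, so its adjusted p is descriptive only. In RNA of sorted cells, fewer cells that carry these transcripts and less RNA per cell cannot be told apart. The summed CPM of 13 megakaryocyte and platelet markers was 631 to 955 in the libraries labelled Jak1 KO and 1352 to 1752 in wt, with 1 marker averaging under 1 CPM. Itga2b was its largest part (means 268 and 548 CPM), and Itga2b, Vwf and Selp are also expressed by LT-HSCs. Most markers had lower means in the libraries labelled Jak1 KO, but Gp9 (52.0 and 51.5 CPM) and Ppbp (12.3 and 10.7 CPM) did not. The part of this sum in the lower Gata1 and Fli1 values was not tested.

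Of 31 tested erythroid genes 0 passed with edgeR, and 5 had an unadjusted p under 0.05, 4 of them lower, beside 667 of all 13184 genes, 351 of them lower. Of the 31, 20 were below 0, against 50.96% of all genes, and the median was -0.14 on the log2 scale. Nearest to the threshold was Aqp1, the water channel of red cells and endothelium (-1.02, SE 0.25, adjusted p = 0.178). Epor, the erythropoietin receptor and a Gata1 target, lay at 23.9 ± 7.26 CPM in the libraries labelled Jak1 KO and 32.8 ± 4.66 in wt (SD, n = 6 each, adjusted p = 0.767).

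Late red cell transcripts stood out in 1 library. wt 2 held 3449 CPM of the beta-globin gene Beta-s, 255 CPM of Alas2, the first enzyme of haem synthesis in red cells, and 16.5 CPM of the anion exchanger Slc4a1. The other 11 libraries ranged from 1.34 to 7.03, from 0.453 to 16.0 and from 0 to 2.89 CPM. Gata1 (62.4 CPM) and Klf1 (9.09 CPM) were not the highest of the VD wt libraries in wt 2, and without wt 2 the log2 fold change of Gata1 was -0.84. Hba-a1, Hba-a2 and Hbb-b2, which have near-identical copies, had 0 reads in every library.

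Of 9 tested mast cell and basophil genes 0 passed with edgeR. Fcer1g, a signalling chain of IgE and other Fc receptors, was at 34.8 ± 19.2 CPM in the libraries labelled Jak1 KO and 20.4 ± 7.86 in wt (adjusted p = 0.521), and Fcer1a, the IgE receptor chain, at 1.31 and 2.72 CPM (adjusted p = 0.916). The summed CPM of 10 mast cell and basophil markers was 7.14 to 18.0 in the libraries labelled Jak1 KO and 6.17 to 16.1 in wt. Of these markers 7 averaged under 1 CPM, and Mcpt4 had 0 reads.

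Partner proteins of these complexes showed no call. Of 23 tested partners, among them Ldb1, Runx1 and Erg, 0 passed with edgeR and 1 had an unadjusted p under 0.05. This was Runx1t1, a corepressor of the ETO family, at 7.92, 12.9 and 7.68 CPM in the VD libraries labelled Jak1 KO against 2.85, 3.14 and 5.33 in VD wt, and 16.2, 21.7 and 21.95 in the ZL libraries labelled Jak1 KO against 11.3, 9.51 and 12.4 in ZL wt. It was higher in every library labelled Jak1 KO than in any wt library of its name set (log2 fold change 1.08, SE 0.23). Its edgeR adjusted p was 0.0621, or 0.0272 without Jak1 KO 4. Rcor1, a corepressor that binds Gfi1b, was at -0.63 on the log2 scale (adjusted p = 0.945), and wt 4 alone was high among ZL libraries, with 68.2 CPM against 16.7 and 18.9 in the other ZL wt libraries.

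Of 14 tested paralogs of the 10 genes 0 passed with edgeR and 0 had an unadjusted p under 0.05. Lmo4, a relative of Lmo2, had a log2 fold change of 0.39 (SE 0.19) and Nfe2l3, a relative of Nfe2, of 0.57 (SE 0.39). Of 19 tested other factors of these lineages 0 passed and 2 had an unadjusted p under 0.05, among them Mef2c (-0.44, SE 0.14, edgeR adjusted p = 0.510), needed for platelet formation. Of 12 tested factors of myeloid and lymphoid fates 0 passed, with Rora (0.60, adjusted p = 0.803) and Sfpi1, the older symbol of the gene for PU.1, which opposes Gata1 (0.60, adjusted p = 0.945), nearest. Sfpi1 was at 205 CPM in Jak1 KO 4 and at 53.1 to 83.7 in the other 5 libraries labelled Jak1 KO, against 36.4 to 85.4 in wt.

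**Figure D4:**
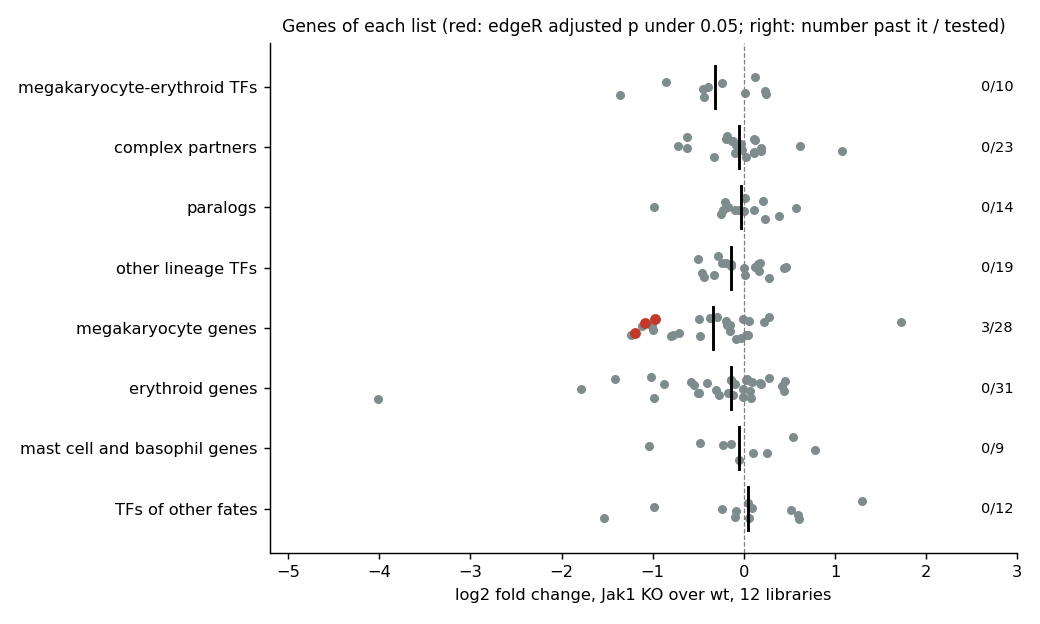
Log2 fold change over 12 libraries (labelled Jak1 KO over wt) of every tested gene in 8 lists, with medians as black bars and genes past edgeR's adjusted p of 0.05 in red. The 3 called genes are megakaryocyte genes, all below 0, and the point near -4.02 among erythroid genes is Beta-s.

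The genes whose levels followed Gata1 most closely were found by Pearson correlation of log2 CPM, with the mean of each name set removed, among 10885 genes with a mean of at least 5 CPM. The 12 libraries share the genotype contrast, so this describes likeness only. The 5 closest were H2-Eb1, an MHC class II chain (r = 0.96), Ufsp1, a protease of the UFM1 system (0.95), Ifi47, an interferon-inducible GTPase (0.95), Gm4951 (0.94) and Plac8 (0.94). Of these H2-Eb1, Ifi47 and Gm4951 passed edgeR's threshold between genotypes, with log2 fold changes of -3.12, -0.72 and -2.41 (adjusted p = 0.0121, 0.0455 and 0.00253). The 3 most opposed were Krt7 (r = -0.94), Tle2, a corepressor of the Groucho family (-0.93), and D630039A03Rik (-0.90). Among the other 9 transcription factor genes Gfi1b (0.68), Klf1 (0.52) and Fli1 (0.46) came closest to Gata1, and Lyl1 (-0.07) and Lmo2 (-0.03) were the least alike.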

How the data were processed

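The deposited table holds raw counts, whole numbers of reads per gene that the authors did not normalise. Alignment and counting tools named in the submitters' processing notes are Subread, featureCounts and STAR 2.3.0e, the genome build is mm10, while annotation and strand setting were not stated in any source used. Columns were matched to samples by description and groups by title. GENCODE M21 (GRCm38, the mm10 assembly) gave positions, exon lengths and GC for 23105 of 23472 symbols, 1235 of them as older symbols. The test was that of edgeR 4.0.16 under R 4.3.3 (filterByExpr on genotype, TMM, a term for name set, quasi-likelihood F test, Benjamini-Hochberg over all genes tested), and the SE is |log2 fold change| / √F. The ratio of Gata1 to Gata2 used exact permutation. The method was tested on simulated data. Alternatives included DESeq2 1.42.0 and limma 3.58.1. Log2 CPM had a prior count of 2. The members and lists were chosen with earlier results of these data known. Named genes were the members, the 4 genes of smallest p in each list (2 where none passed) and the 5 most and 3 least like Gata1. Beta-s, Alas2, Slc4a1, Plek, Pf4 and the ratio were chosen after their values were seen. Total counts were 8989965 to 28701855 per library, and counting error bears most on Klf1. Some genes that the rule names are not reported here.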

Additional observations from a re-analysis of the deposited data

How the results depend on the processing

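The number of the 10 genes that passed was 0, and it was 1 (Gata1) with the DESeq2 Wald test, without Rn45s and Lars2, with an exon length offset, with a GC offset, in VD libraries alone, with 3 ZL libraries (wt 6, Jak1 KO 4 and Jak1 KO 6) omitted at once, and at an adjusted p of 0.1. It was 3 with limma-voom, and 0 to 1 when each library was left out. The GC offset and the joint omission were chosen after seeing the data. With the replicate block 1 of the 10 passed, Gata1 (log2 fold change -0.88, adjusted p = 0.0414), and 72 of all genes. Same-numbered libraries correlated at 0.043 to 0.67 in their deviations, above 0.1 in 4 of 6 pairs, 6 of 12 libraries were closest to their own number, and all 6 pairs were of the same sex. The labels do not say that a number marks a pair. Over all genes 58 passed, 126 with DESeq2, 220 with limma-voom, 14 without the name set term, 149 in VD alone and 0 in ZL alone. Without Rn45s and Lars2 63 passed, with an exon length offset 77, with a GC offset 57 and at an adjusted p of 0.1 75. The count was 96 with the 3 libraries left out. It was 39 to 77 when 1 library was left out, highest without Jak1 KO 4. On plain CPM 1 of the 10, Gata1, did not overlap in both name sets, in place of 2. The share of all genes on plain CPM is given for VD alone (8.96%) and not for both name sets together. The Gata1 to Gata2 log2 difference ranged from -0.84 to -0.45 without 1 library. The directions of Gata1, Gata2, Klf1, Zfpm1, Gfi1b and Fli1 held in all 27 alternatives. Small fold changes turned to negative: for Nfe2 -0.071 (limma-voom), -0.064 (VD alone) and -0.012 (3 libraries left out), and between -0.018 and 0.18 without 1 library; for Tal1 -0.044 (limma-voom), -0.045 (no name set term), -0.0016 (replicate block), -0.0019 (without Rn45s and Lars2) and -0.022 (VD alone), and between -0.046 and 0.088 without 1 library; for Lyl1 -0.044 (limma-voom) and -0.023 (VD alone); for Lmo2 -0.066 (limma-voom), -0.15 (VD alone) and -0.028 (3 libraries left out). The cause was not tested.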
